A study of Sinocyclocheilus angustiporus and Sinocyclocheilus anophthalmus with 4 samples.

Results

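This account covers the water channels, junctional membrane proteins and beaded filament proteins of lens fibre cells in the eyes of a cavefish and a surface fish, set beside the other aquaporins. Members were the rows whose deposited name contains "major intrinsic protein", "aquaporin", "lens intrinsic membrane", "beaded filament", "phakinin" or "filensin" in any case. The search found 16 of 9649 rows. Of these, 10 carry names of lens fibre proteins and 6 are other aquaporins. The cavefish were adult Sinocyclocheilus anophthalmus and the surface fish adult Sinocyclocheilus angustiporus, both of the carp family. RNA sequencing gave 1 library of whole eye per species. Per the labels' protocols 2 individuals of each species were used, without a statement of how they enter a library. The labels do not say which instrument, an Illumina Genome Analyzer or a HiSeq, read which library, so instrument and species cannot be told apart. With 1 library per group there is no replicate check, no error between animals and no test. A brain library of each species was not analysed here.

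A lens fibre cell is a very long cell that loses its nucleus and organelles as it matures and is packed with crystallins. Its membrane carries major intrinsic protein, also called aquaporin 0, a water channel that also joins neighbouring fibres. It also carries lens intrinsic membrane protein 2, known as MP19 or MP20, a junctional protein of the claudin and peripheral myelin protein family. Under the membrane lie beaded filaments, intermediate filaments that are built from filensin and phakinin together. Mutations in each of these proteins cause cataract in mammals. Other aquaporins of a vertebrate eye are made in many cells, among them surface epithelium, Mueller glia, endothelium and red blood cells, and are not all absent from the lens. No sequences are shown, since the files used here give names and values alone.

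Values were RPKM, in which the authors divide the reads of a row by its length and by the size of the library, so that levels of different rows share a scale within a library. A log2 ratio below is log2((cavefish RPKM + 1) / (surface fish RPKM + 1)), and 2-fold means a log2 ratio of 1 or -1. Values summed to 665573.62 RPKM in the cavefish eye and 684735.55 RPKM in the surface fish eye. The median log2 ratio of all rows was -0.27, which every count on this scale carries. Read numbers behind the values are unknown, so no counting interval is given. All 16 members had at least 6.48 RPKM in the cavefish eye and 11.5 RPKM in the surface fish eye, so none was in the tables through 1 eye alone, as the tables hold no row under 5 RPKM in both.

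Most lens fibre rows were higher in the cavefish eye, while among the other aquaporins aquaporin 3a alone was past 2-fold and was lower. Of 10 lens fibre rows, 4 were at least 2-fold higher and none 2-fold lower, where 3.83% of all rows were 2-fold higher and 10.1% were 2-fold lower. In all, 9 of the 10 had a log2 ratio above 0, as had 31.2% of all rows, and their median was 0.93 beside -0.27 over all rows. Of 6 other aquaporin rows, none was 2-fold higher and 1 was 2-fold lower, and the median was -0.67. A log2 ratio below 0 was found for 4 of the 6 and for 68.8% of all rows, so the sign count of the other aquaporins lay near that of the whole table. With log2 ratios centred on the median of all rows, 7 lens fibre rows were 2-fold higher, where 6.71% of all rows were, and 1 other aquaporin was 2-fold lower, where 5.55% of all rows were. The 10 lens fibre rows summed to 2079 RPKM in the cavefish eye and 1015 RPKM in the surface fish eye, and the 6 other aquaporins to 118.6 and 227.4 RPKM in the cavefish and the surface fish eye. The sum of the lens fibre rows was thus 17.5 times that of the other aquaporins in the cavefish eye, against 4.46 times in the surface fish eye. In whole eyes, a larger lens among the dissected tissue, less RNA from other tissues and more RNA per lens cell cannot be told apart.

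**Figure D1:**
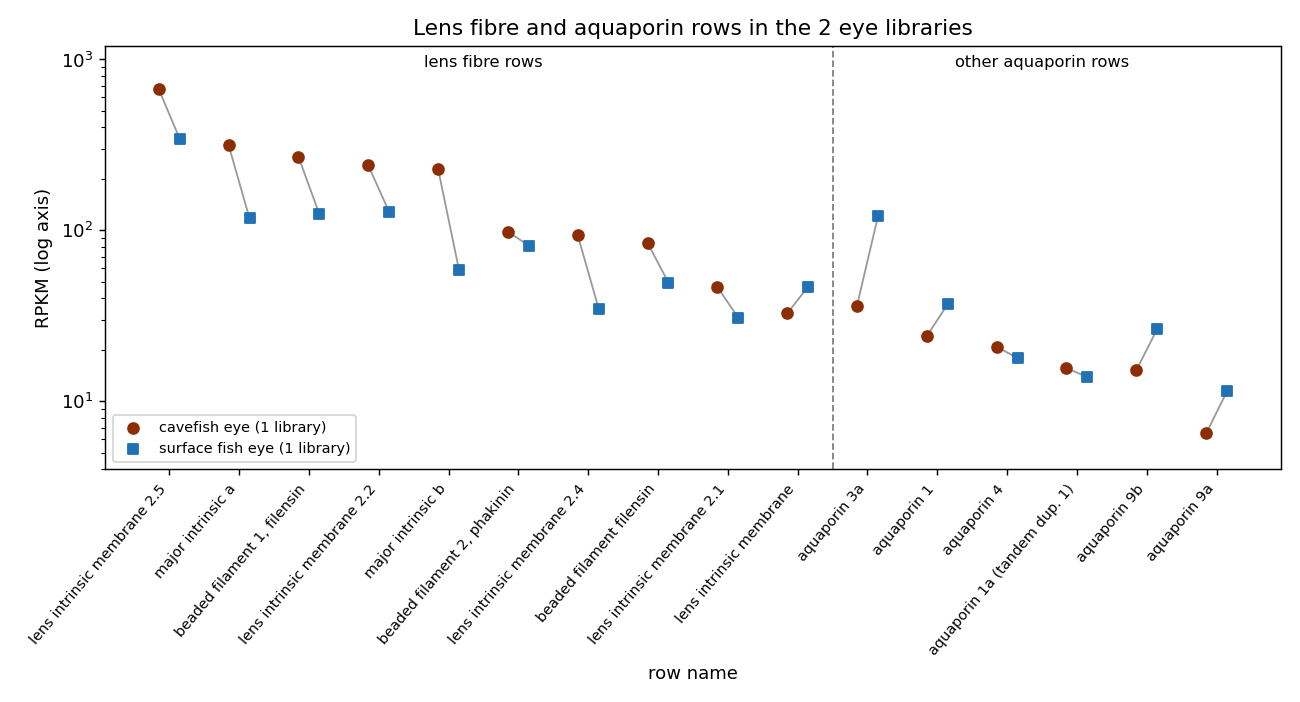
RPKM (log axis) of the 16 member rows in the cavefish eye (circles) and the surface fish eye (squares), 1 library each, with lens fibre rows left of the dashed line and other aquaporin rows right of it. The circle lies above the square for 9 of 10 lens fibre rows and for 2 of 6 other aquaporins.

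The water channel of the fibre membrane showed the largest ratios among the members. Major intrinsic protein of lens fiber b stood at 229.3 RPKM in the cavefish eye and 58.7 RPKM in the surface fish eye, a log2 ratio of 1.95. It ranked 134 by level in the cavefish eye and 908 in the surface fish eye, and its ratio ranked 62 among the 9649 rows. Zebrafish carry a pair of such genes, a and b, where mammals have a single gene. Major intrinsic protein of lens fiber a stood at 315.4 RPKM in the cavefish eye and 117.4 RPKM in the surface fish eye, a log2 ratio of 1.42. The a row was the more abundant of the pair in both eyes, but the b row came closer to it in the cavefish, at 0.73 of the a level, against 0.50 in the surface fish. Together the pair summed to 544.7 RPKM in the cavefish eye and 176.1 RPKM in the surface fish eye. In the cavefish eye this was 4.59 times the sum of the other aquaporins, and in the surface fish eye 0.77 times.

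The lens intrinsic membrane proteins were the most abundant of the 3 lens fibre families in both eyes, with 5 rows that summed to 1082 RPKM in the cavefish eye and 584.1 RPKM in the surface fish eye. Lens intrinsic membrane protein 2.5 was the top member of both libraries, at 668.8 RPKM in the cavefish eye and 343.3 RPKM in the surface fish eye. It held rank 27 among all rows of the cavefish eye and rank 86 in the surface fish eye. Its log2 ratio of 0.96 and that of lens intrinsic membrane protein 2.2, 0.90, lay just inside 2-fold. The 2.2 row stood at 239.9 RPKM in the cavefish eye and 128.1 RPKM in the surface fish eye. The 2.5 row was 2.79 times as high as the 2.2 row in the cavefish and 2.68 times in the surface fish, so the ratio between these 2 rows was nearly alike in the species. Lens intrinsic membrane protein 2.4 was the member of the family past 2-fold, at 93.6 RPKM in the cavefish eye and 34.9 RPKM in the surface fish eye, a log2 ratio of 1.40. The 2.1 row was less abundant, at 46.7 RPKM in the cavefish eye and 30.8 RPKM in the surface fish eye, a log2 ratio of 0.58.

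A further row, named lens intrinsic membrane protein without a number, went the other way. It stood at 32.6 RPKM in the cavefish eye and 46.9 RPKM in the surface fish eye, a log2 ratio of -0.51, and was the single lens fibre row that was lower in the cavefish. Relative to the 2.5 row it was 0.049 in the cavefish eye and 0.14 in the surface fish eye. The tables do not say which gene of the family this row is. A row named lens membrane protein mp19-2 lies outside the search terms, although MP19 is an older name of this protein; it was picked out after its values had been seen. It stood at 102.8 RPKM in the cavefish eye and 66.7 RPKM in the surface fish eye, a log2 ratio of 0.62, inside the range of the numbered rows.

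The beaded filament rows differed less than the water channels, and unequally. Beaded filament structural protein 1, filensin, stood at 269.7 RPKM in the cavefish eye and 124.5 RPKM in the surface fish eye, a log2 ratio of 1.11. Its partner in the filament, beaded filament structural protein 2, phakinin, stood at 98.3 RPKM in the cavefish eye and 81.4 RPKM in the surface fish eye, a log2 ratio of 0.27. The filensin row was therefore 2.74 times the phakinin row in the cavefish eye, against 1.53 times in the surface fish eye. Another row named beaded filament structural protein filensin stood at 84.5 RPKM in the cavefish eye and 49.4 RPKM in the surface fish eye, a log2 ratio of 0.76. The names do not tell whether the 2 filensin rows are separate gene copies or pieces of 1 transcript, nor how reads were divided among similar copies. The 3 rows summed to 452.4 RPKM in the cavefish eye and 255.3 RPKM in the surface fish eye. That sum was 0.83 times that of the pair of water channel rows in the cavefish and 1.45 times in the surface fish, so the filament family was below the water channels in the cavefish eye and above them in the surface fish eye.

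**Figure D2:**
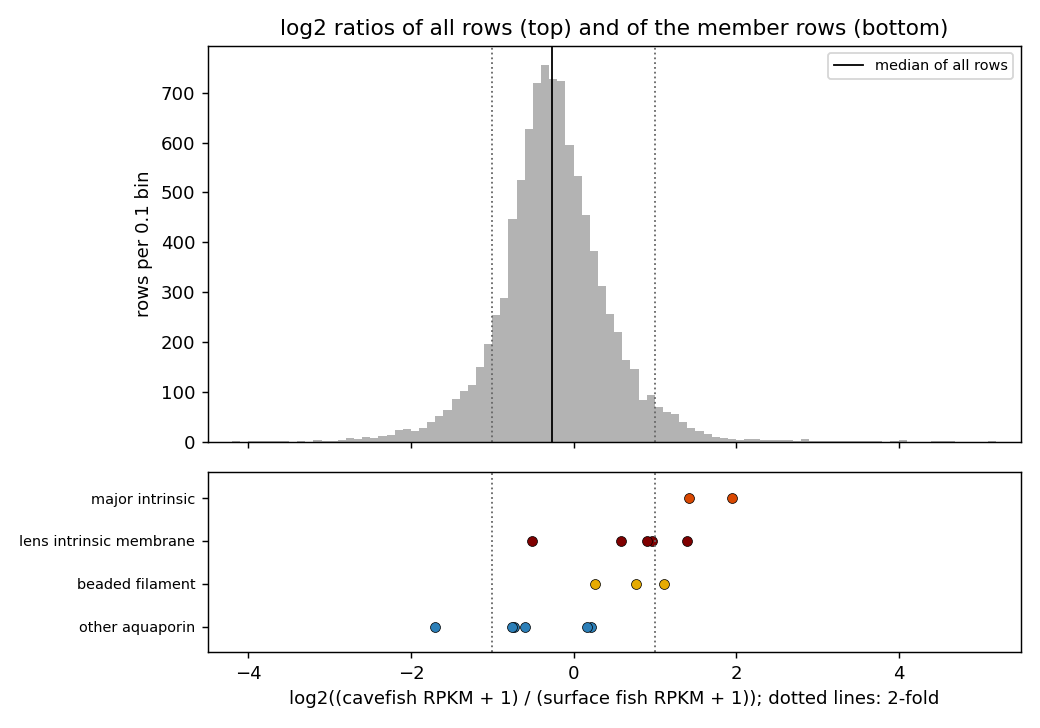
Histogram of log2 ratios (cavefish over surface fish, pseudocount of 1) of all 9649 rows above, and the 16 members by family below, each point a row, with dotted lines at 2-fold. Both major intrinsic protein rows, 1 of 5 lens intrinsic membrane rows and 1 of 3 beaded filament rows lie right of the upper line, and 1 of 6 other aquaporins, aquaporin 3a, lies left of the lower one.

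Among the other aquaporins, aquaporin 3a differed most between the eyes. This aquaglyceroporin, which passes water and glycerol in surface epithelia such as those of cornea and skin, stood at 36.3 RPKM in the cavefish eye and 120.7 RPKM in the surface fish eye, a log2 ratio of -1.71 that ranked 210 from the bottom of all rows. It was the most abundant of the 6 in both eyes. It held 30.6% of their summed RPKM in the cavefish eye and 53.1% in the surface fish eye. In the surface fish eye its level was just above that of major intrinsic protein a, at 120.7 and 117.4 RPKM, whereas in the cavefish eye it was below every lens fibre row but the unnumbered one. Markers of cornea and skin epithelium were also lower in the cavefish eye. Of 17 such rows, 13 were 2-fold lower and none higher, where 10.1% of all rows were 2-fold lower and 3.83% higher. Of the 13, 6 were under 5 RPKM in the cavefish eye and in the tables through the surface fish eye alone. Among the 10 rows with 5 RPKM or more in both eyes, 7 were 2-fold lower, as were 677 of all 7719 rows at that level. The 17 rows summed to 359.4 RPKM in the cavefish eye and 1484 RPKM in the surface fish eye. The basal keratin 5 stood at 53.3 RPKM in the cavefish eye and 660.2 RPKM in the surface fish eye, and keratin 4 at 22.4 and 143.4 RPKM in the cavefish and the surface fish eye. Keratin 8 was within 2-fold, at 90.9 RPKM in the cavefish eye and 98.2 RPKM in the surface fish eye. None of the 17 rows was at 0. The part of these markers in the aquaporin 3a difference was not tested.

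Both aquaporin 9 rows were lower in the cavefish eye, within 2-fold. Aquaporin 9b stood at 15.2 RPKM in the cavefish eye and 26.5 RPKM in the surface fish eye, a log2 ratio of -0.76, and aquaporin 9a at 6.48 and 11.5 RPKM in the cavefish and the surface fish eye, a log2 ratio of -0.74. Aquaporin 9 is an aquaglyceroporin that mammals make in liver. Transcripts of 6 liver plasma proteins summed to 340.3 RPKM in the cavefish eye and 13.6 RPKM in the surface fish eye. All 6 were under 5 RPKM in the surface fish eye and thus in the tables through the cavefish eye alone. Rows that low in the surface fish eye can only be present if they are higher in the cavefish eye, so a count of their directions is not informative.

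The 2 aquaporin 1 rows differed from each other. The row named aquaporin 1 stood at 24.1 RPKM in the cavefish eye and 37.0 RPKM in the surface fish eye, a log2 ratio of -0.60. The row named aquaporin 1a, tandem duplicate 1, stood at 15.6 RPKM in the cavefish eye and 13.9 RPKM in the surface fish eye, a log2 ratio of 0.16. Aquaporin 1 is a water channel of red blood cells, endothelium and corneal endothelium in mammals, among other cells. Of 6 erythrocyte rows, 4 were 2-fold lower and none higher, where 10.1% of all rows were 2-fold lower and 3.83% higher. The 6 rows summed to 529.1 RPKM in the cavefish eye and 1736 RPKM in the surface fish eye. Most of both sums came from the globin rows. Hemoglobin alpha adult-1 stood at 249.5 RPKM in the cavefish eye and 1094 RPKM in the surface fish eye, and ba1 globin at 236.6 and 540.4 RPKM. Of 5 vascular endothelium rows, EGF-like-domain, multiple 7, a secreted endothelial protein, was the one past 2-fold, at 23.6 RPKM in the cavefish eye and 174.3 RPKM in the surface fish eye. The other 4 had log2 ratios of -0.97 to -0.059, and the median of the 5 rows was -0.57, beside -0.27 over all rows. The lowest of these 4, claudin 5b, was under 5 RPKM in the cavefish eye, at 4.03 RPKM. The part of both lists in either aquaporin 1 value was not tested.

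Aquaporin 4, the water channel of glial endfeet, stood at 20.9 RPKM in the cavefish eye and 17.9 RPKM in the surface fish eye, a log2 ratio of 0.21. It had the largest ratio of the other aquaporins. The Mueller glia list lay on both sides of 0. The median of its 10 rows was -0.56, beside -0.27 over all rows. Of the 10, 3 were 2-fold lower and none higher, where 10.1% of all rows were lower and 3.83% higher. The lower ones were carbonic anhydrase (59.8 RPKM in the cavefish eye and 133.4 RPKM in the surface fish eye), the glial glutamate transporter member 2a (9.51 and 34.0 RPKM in the cavefish and the surface fish eye) and glutamine synthase b (10.5 and 26.9 RPKM in the cavefish and the surface fish eye). The 3 rows with a log2 ratio above 0 were glial fibrillary acidic protein (124.7 RPKM in the cavefish eye and 71.2 RPKM in the surface fish eye), retinaldehyde binding protein 1a (38.8 and 24.8 RPKM in the cavefish and the surface fish eye) and the glutamate transporter member 2b (78.7 and 70.9 RPKM in the cavefish and the surface fish eye). The potassium channel of subfamily J, member 10, which shares the endfoot membrane with aquaporin 4 in mammals, stood at 6.54 RPKM in the cavefish eye and 9.62 RPKM in the surface fish eye. Of 5 rows of the dystrophin complex, which anchors aquaporin 4 in mammals, dystrophin was 2-fold lower, at 29.5 RPKM in the cavefish eye and 99.7 RPKM in the surface fish eye, and the other 4 were within 2-fold with log2 ratios of 0.11 to 0.89.

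The lens fibre rows can also be set against the crystallins, most of them soluble proteins of the same cells. The rows so named also include a few small heat shock and crystallin domain proteins that are not confined to lens fibres. The 35 crystallin rows summed to 14161 RPKM in the cavefish eye and 11313 RPKM in the surface fish eye, 1.25 times as much in the cavefish. The lens fibre rows summed to 146.8 RPKM per 1000 RPKM of crystallin in the cavefish eye and 89.8 in the surface fish eye. Within this, the major intrinsic protein rows gave 38.5 in the cavefish eye and 15.6 in the surface fish eye, the lens intrinsic membrane rows 76.4 and 51.6 in the cavefish and the surface fish eye, and the beaded filament rows 31.9 and 22.6 in the cavefish and the surface fish eye. The crystallin sum leans on a few rows. Gamma S1 crystallin stood at 3107 RPKM in the cavefish eye and 4046 RPKM in the surface fish eye, beta B2 at 2275 and 1696 RPKM and beta B1 like 2 at 2230 and 989.7 RPKM in the cavefish and the surface fish eye. Without gamma S1 the crystallins summed to 1.52 times as much in the cavefish eye, and the lens fibre rows stood at 188.0 RPKM per 1000 RPKM of crystallin in the cavefish eye and 139.7 in the surface fish eye. By rows rather than by sums the crystallins had a median log2 ratio of 1.06, beside the median of 0.93 of the lens fibre rows. Of the 35, 18 were at least 2-fold higher and none lower, where 3.83% of all rows were 2-fold higher and 10.1% lower. The 18 include the small heat shock proteins b6 and b8. The b8 row, at 5.98 RPKM in the cavefish eye and 2.04 RPKM in the surface fish eye, was in the tables through the cavefish eye alone. Centred on the crystallin median, the lens fibre median was -0.13. The lens fibre families were thus higher relative to the summed crystallin RNA, whereas the median lens fibre row lay close to the median of all 35 crystallin rows. The crystallin median depended on the rows taken. It was 1.21 for the 14 gamma M rows, which held 11 of the 18 rows past 2-fold. For the 9 beta rows it was 0.46, and for the 17 crystallin rows that reached 100 RPKM in either eye 0.84.

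**Figure D3:**
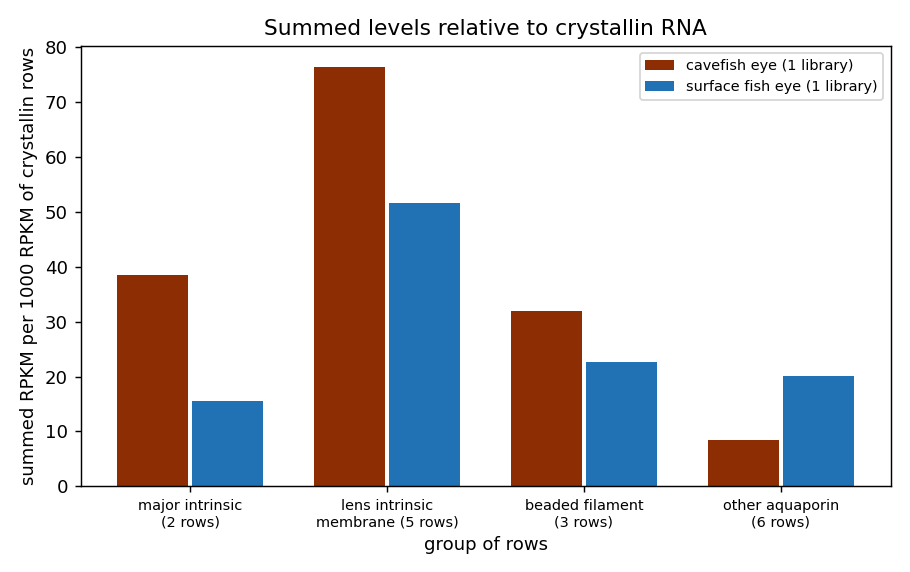
Summed RPKM of each family per 1000 RPKM of the 35 crystallin rows, in the cavefish eye (left bar of each pair) and the surface fish eye (right bar), 1 library each and no error bars. The 3 lens fibre families have the taller bar in the cavefish eye, and the other aquaporins, at 8.37 in the cavefish eye and 20.1 in the surface fish eye, in the surface fish eye.

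On the scale of equal crystallin sums, 19.5% of all rows were 2-fold lower and 1.97% 2-fold higher in the cavefish eye. There, 3 lens fibre rows were 2-fold higher, namely major intrinsic protein b at 1.63, major intrinsic protein a at 1.10 and lens intrinsic membrane protein 2.4 at 1.08. Filensin came to 0.79 and phakinin to -0.052.

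**Figure D4:**
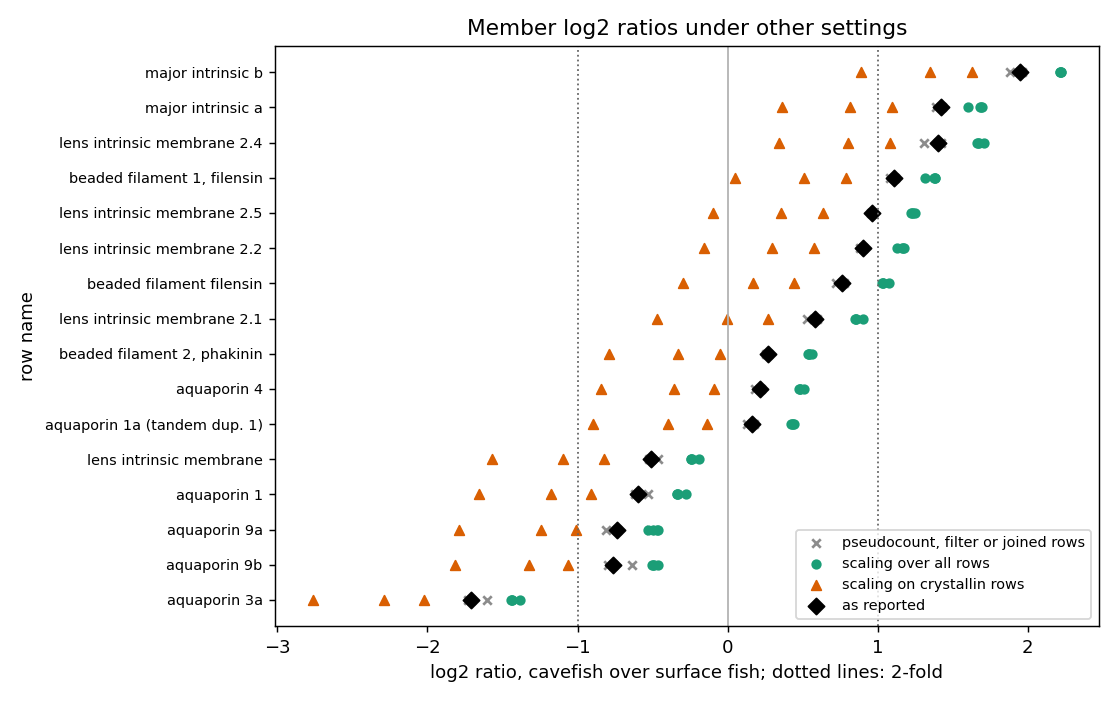
Log2 ratios (cavefish over surface fish) of the 16 members as reported (diamonds), with other pseudocounts, filters or joined rows (crosses), with 4 scalings over all rows (circles) and with 3 scalings on crystallin rows (triangles). Scalings over all rows move each row up and bring 3 more lens fibre rows past 2-fold, whereas scalings on crystallin rows move each row down. Of the lens fibre rows, both major intrinsic protein rows, lens intrinsic membrane protein 2.4 and the more abundant filensin row stay above 0 throughout.

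A further list of 48 rows held other genes that lens fibres make and regulators of the lens. Its small heat shock proteins b6 and b8 are also among the 35 crystallin rows above, so they are counted in both lists. Many of them, such as calmodulins, type IV collagens and vimentin, are not confined to the lens. In whole eyes the list therefore does not describe lens fibres alone. Of the 48, 8 were 2-fold higher, 1 was 2-fold lower and 39 were within 2-fold, with a median log2 ratio of 0.29. Over all rows 3.83% were 2-fold higher and 10.1% were 2-fold lower. Of the 48, 6 had under 5 RPKM in the surface fish eye and entered the tables through the cavefish eye alone. Their sign was thus fixed in advance, and the median includes them. Of the 8 higher rows, 4 were among these 6. Among the 42 rows with 5 RPKM or more in both eyes, 4 were higher and 1 was lower. Of all 7719 rows at that level, 179 were 2-fold higher and 677 were 2-fold lower. The 4 higher ones of the list included galectin related inter-fiber protein, a lens fibre lectin (169.1 RPKM in the cavefish eye and 73.8 RPKM in the surface fish eye), and lengsin, a lens protein of the glutamine synthetase fold (110.7 and 50.2 RPKM in the cavefish and the surface fish eye). The small heat shock protein b6 was also among these 4, at 28.5 RPKM in the cavefish eye and 10.9 RPKM in the surface fish eye. So was type IV collagen alpha 3, at 19.1 RPKM in the cavefish eye and 9.01 RPKM in the surface fish eye. Its log2 ratio of 1.004 lay barely past 2-fold. Fatty acid binding protein 11a, at 178.8 RPKM in the cavefish eye and 89.2 RPKM in the surface fish eye, lay barely inside it at 0.996. The fibre gap junction protein alpha 3 stood at 12.3 RPKM in the cavefish eye and 2.5 RPKM in the surface fish eye, a log2 ratio of 1.93, and the row of the zebrafish lens connexin gja8b at 6.62 and 0.99 RPKM in the cavefish and the surface fish eye. Both connexins are among the 4 higher rows that are in the tables through the cavefish eye alone. Epithelial membrane protein 2, a relative of lens intrinsic membrane protein 2 that epithelia make, was the 2-fold lower one, at 15.4 RPKM in the cavefish eye and 39.5 RPKM in the surface fish eye. All 8 regulators of lens development on the list were within 2-fold. Their log2 ratios were 0.79 for heat shock transcription factor 4, 0.66 for prospero-related homeobox gene 1, 0.60 for paired box gene 6a, 0.51 for sine oculis homeobox homolog 3a, 0.34 for sine oculis homeobox homolog 3b, 0.29 for paired-like homeodomain transcription factor 3, -0.18 for paired box gene 6b and -0.25 for the v-maf homolog protein B. Heat shock transcription factor 4 stood at 6.83 RPKM in the cavefish eye and 3.52 RPKM in the surface fish eye. That row too was in the tables through the cavefish eye alone, so its sign was fixed by the limit of 5 RPKM. The 6 calmodulin rows, a protein that binds and gates aquaporin 0 in mammals, had log2 ratios of -0.55 to 0.29.

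Other tissues of the dissected eye differed between the libraries too. Over all rows, 10.1% were 2-fold lower in the cavefish eye and 3.83% were 2-fold higher. Of 15 rod and cone rows, 13 were 2-fold lower in the cavefish eye and none higher, at 7491 RPKM in sum in the cavefish eye and 22660 RPKM in the surface fish eye. Most of both sums came from rhodopsin, at 4884 RPKM in the cavefish eye and 14606 RPKM in the surface fish eye. Of 13 skeletal muscle rows, 8 were 2-fold higher, 1 of them in the tables through the cavefish eye alone, and none lower, at 2599 RPKM in sum in the cavefish eye and 1007 RPKM in the surface fish eye. The labels do not give the share of each tissue in the dissected eyes, and its part in the member values was not tested.

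The rows nearest in level to lens intrinsic membrane protein 2.5 in both libraries, by distance over log2(RPKM + 1) in 2 libraries, were si:ch211-221n20.8 (distance 0.098), zgc:109885 (0.24), zgc:153704 (0.27), ribosomal protein S2 (0.28) and crystallin beta A1 like (0.33). With only 2 libraries, nearness says that 2 levels were alike and nothing of a shared pattern.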

How the data were processed

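Whole eyes of adult fish of 2 species were analysed, with 1 library each. RNA was extracted with TRIzol and selected with oligo(dT), per the labels' protocols. The authors deposited RPKM, per the file headers, in 2 tables with the same 9649 row names. The submitters' processing notes list Bowtie 0.12.2 and do not state its role. The sources used here do not give the reference, transcript lengths, strand or handling of multiply matching reads. Depth is unknown. No row was at 0, and the larger value of every row was 5 RPKM at least.

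Log2 ratios were computed with a pseudocount of 1 RPKM, which understates changes of low rows. Every row was kept, and each of the 16 member names stood on 1 row. No test was made. Crystallins were all rows so named, apart from lambda crystallin, and so include a few small heat shock and crystallin domain proteins. The members, lists and thresholds were chosen with earlier results of these data known. Row names were matched to the lists by hand from the names alone. Every member is named. Of the lists, some rows past 2-fold with the highest values and set lens genes are named. Others were picked after their values had been seen: keratin 8, potassium channel member 10, glial rows above 0, the lens regulators, calmodulin, vimentin, type IV collagens, small heat shock protein b8, claudin 5b, fatty acid binding protein 11a and mp19-2. The code was tested on simulated data. Alternatives were pseudocounts of 0.1 and 5, 2 filters, 5 scalings, joined rows and thresholds of 1.5-fold and 4-fold; 2 crystallin scalings were added after seeing the data. Python 3.11.15, numpy 2.4.6, pandas 2.3.3, scipy 1.17.1 and matplotlib 3.10.9 were used.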

Additional observations from a re-analysis of the deposited data

How the results depend on the processing

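No paired analysis was possible because each group has 1 library, and no library could be left out. Depth is unknown, and without replicates a value was called alike under another setting if it kept its sign and its side of 2-fold and moved by at most 1.5 times. The median of the lens fibre rows passed 2-fold with centring on the median of all rows (1.20), a trimmed mean (1.19), equal totals without the 50 most abundant rows (1.20) and quantile normalization (1.19), each with 7 rows 2-fold higher. The difference between the lens fibre and other aquaporin medians was 1.60. Filters, joined rows and equal shifts of all log2 ratios cannot move this difference. It was 1.64 and 1.44 with pseudocounts of 0.1 and 5, 1.62 with equal totals and 1.56 with quantile normalization. With equal crystallin sums it was 1.57, and 1.54 without gamma S1.

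Crystallin scalings moved values the other way. Centred on the median of crystallin rows the lens fibre median was -0.13, with 0 rows 2-fold higher and 1 lower, and the other aquaporin median -1.73. With equal crystallin sums without gamma S1 the lens fibre median was 0.33, with 1 row 2-fold higher and 1 lower, and the other aquaporin median -1.21. In both, 4 other aquaporins were 2-fold lower, and 3 with equal sums of all crystallins. Of all 9649 rows, 6949 were 2-fold lower centred on crystallins, 3307 without gamma S1 and 1882 with equal sums, so lower counts rose over the whole table. The matching 2-fold higher counts of all rows were 55, 109 and 190. At 1.5-fold 7 lens fibre rows were higher, beside 889 of all rows, and 4 other aquaporins lower, beside 2575 of all rows. At 4-fold 0 lens fibre rows were higher and 0 other aquaporins lower, beside 58 and 124 of all rows.

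Values changed sign on crystallin scales alone, in the order all crystallins, without gamma S1 and centred on their median, for aquaporin 4 (-0.093, -0.36, -0.84), aquaporin 1a (-0.14, -0.40, -0.89) and phakinin (-0.052, -0.33, -0.79). Lens intrinsic membrane protein 2.1 did so in the last 2 (-0.0055, -0.47), and the second filensin row (-0.29), lens intrinsic membrane protein 2.2 (-0.16) and 2.5 (-0.10) in the last.

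Of all rows, 2-fold higher and 2-fold lower counts were 647 and 536 centred on the median, 639 and 540 with a trimmed mean, 623 and 563 with equal totals, 597 and 559 with quantile normalization, 190 and 1882 with equal crystallin sums, 109 and 3307 without gamma S1, and 55 and 6949 centred on crystallins. They were 173 and 517 with a pseudocount of 5, 889 and 2575 at 1.5-fold, and 58 and 124 at 4-fold. Among the 7719 rows with 5 RPKM or more in both eyes, 179 were 2-fold higher and 677 were 2-fold lower. The higher share of calls thus depends on the scale.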
